A study of Saccharomyces cerevisiae with 2 samples.

Results

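Divergent intergenic regions lie between the starts of 2 ORFs that are read in opposite directions, so that each region holds the promoters of both genes. In *Saccharomyces cerevisiae* such promoters often fire both ways, and cryptic unstable transcripts (CUTs) are made from them beside the mRNAs. CUTs are capped and bound by the cap-binding complex, of which Cbc2 is the small subunit. Their transcription is ended by the Nrd1–Nab3–Sen1 complex, and they are then tailed by the TRAMP complex (the poly(A) polymerase Trf4 with Air1 or Air2 and the helicase Mtr4) and degraded by the nuclear exosome.

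The members were the 100 bp segments of the 16 nuclear chromosomes that overlapped no ORF of the deposited ORF table, with the nearest ORF to the left on the minus strand and the nearest to the right on the plus strand. Segments within 20 kb of a chromosome end and the loci of the U1 and U2 snRNAs on chromosomes XIV and II were left out. This gave 7617 of 121500 segments (6.27%), which fell into 1369 regions, a region being the run of such segments between 1 pair of ORFs. Coordinates are those of the deposited tables. Which of the builds named by the authors (SGD1.01 and an SK1 assembly) they follow is not stated, but the distance between the 2 ORFs was the same in the R64 reference genome for 1214 of the 1260 regions whose ORFs were found there. A region is named by its left and right ORF.

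RNA bound to Cbc2 was sequenced from *trf4*Δ and wild-type SK1 diploids after 6 h in sporulation medium at 25°, with 1 library of each. In *trf4*Δ both copies of *TRF4* were replaced by NatMX6, and both strains carried TAP-tagged Cbc2, so no library without the tag was compared. The strains were diluted to different densities before sporulation and sequenced on separate lanes, and these differences and the genotype cannot be told apart. No difference here has a replicate check and no p-value is given. The 95% intervals are for counting error only. They are too narrow even for that where a molecule copied by PCR, or a read that spans a segment border, counts more than once. The segments held 29687088 reads in *trf4*Δ and 22092372 in wild type. To bring both totals to the same size, a factor of 1.344 was applied to wild type (normalised reads). The deleted gene, listed as *PAP2*, had 1 read in *trf4*Δ, against 346 unnormalised reads in wild type. The counting is not stated to use strand, so reads of both directions are added.

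Sequences of 5 of the regions are shown with short motifs marked, and no read count or difference below was computed from them. Each is a stretch of 300 bases upstream of the start codon of the right-hand ORF, 5′ to 3′ on the strand of that gene, taken from the R64 genome (RefSeq) where the distance between the 2 ORFs is the same as in the deposited table. In the first 3, capitals mark GTAA and GTAG, the short sites known to be bound by Nrd1, and CTTG, that of Nab3, with their reverse complements TTAC, CTAC and CAAG, since the direction of the RNA is not known from these counts. In *SPO22*–*HOP1* capitals mark GCCGCC, the core of the URS1 element to which Ume6 binds at early meiotic genes, and in *ANB1*–*CYC1* they mark TATAAA. In *HTB1*–*HTA1* a CTTG and a GTAG overlap.
NRD1–RAD50, 310 to 11 bases upstream of RAD50 (segments chrXIV:175101-175400): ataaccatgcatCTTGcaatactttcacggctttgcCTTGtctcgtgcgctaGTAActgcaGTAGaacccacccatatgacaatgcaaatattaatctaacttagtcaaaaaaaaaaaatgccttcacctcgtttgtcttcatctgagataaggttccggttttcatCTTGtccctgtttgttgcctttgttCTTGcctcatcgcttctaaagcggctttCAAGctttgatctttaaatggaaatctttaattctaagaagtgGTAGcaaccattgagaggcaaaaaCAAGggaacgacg
DCP2–MLS1, 359 to 60 bases upstream of MLS1 (segments chrXIV:406001-406300): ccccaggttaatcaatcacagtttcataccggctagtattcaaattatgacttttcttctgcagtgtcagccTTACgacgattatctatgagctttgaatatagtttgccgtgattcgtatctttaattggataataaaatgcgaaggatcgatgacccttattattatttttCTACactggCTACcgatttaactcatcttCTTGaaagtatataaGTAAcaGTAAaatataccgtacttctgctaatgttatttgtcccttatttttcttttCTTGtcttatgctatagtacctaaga
HTB1–HTA1, 325 to 26 bases upstream of HTA1 (segments chrIV:915201-915500): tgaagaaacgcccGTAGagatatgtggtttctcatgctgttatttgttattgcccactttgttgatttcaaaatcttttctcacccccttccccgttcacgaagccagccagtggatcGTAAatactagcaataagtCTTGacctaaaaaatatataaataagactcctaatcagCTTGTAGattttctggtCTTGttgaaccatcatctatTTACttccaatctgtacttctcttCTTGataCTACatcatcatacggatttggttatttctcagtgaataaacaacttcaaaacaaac
SPO22–HOP1, 598 to 299 bases upstream of HOP1 (segments chrIX:226001-226300): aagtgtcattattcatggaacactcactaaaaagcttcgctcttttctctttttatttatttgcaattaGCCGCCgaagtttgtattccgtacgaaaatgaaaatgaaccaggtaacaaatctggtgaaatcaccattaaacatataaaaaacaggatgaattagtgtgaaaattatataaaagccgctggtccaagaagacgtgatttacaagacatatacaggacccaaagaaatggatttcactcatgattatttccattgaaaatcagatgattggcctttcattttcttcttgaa
ANB1–CYC1, 300 to 1 bases upstream of CYC1 (chrX:526028-526327): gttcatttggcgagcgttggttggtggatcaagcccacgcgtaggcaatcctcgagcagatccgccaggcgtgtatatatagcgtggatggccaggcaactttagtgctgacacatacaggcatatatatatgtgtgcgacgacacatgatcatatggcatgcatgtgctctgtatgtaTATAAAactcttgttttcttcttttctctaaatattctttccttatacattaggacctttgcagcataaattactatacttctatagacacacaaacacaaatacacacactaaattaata

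The divergent segments held a larger share of the reads in *trf4*Δ than in wild type. They had 3114848 reads in *trf4*Δ, 10.5% of the library (Wilson interval 10.48 to 10.50%), against 788164 reads in wild type, 3.57% (3.56 to 3.58%). By summed normalised reads this was 2.94-fold more in *trf4*Δ, compared to 2.25-fold for tandem regions (between ORFs of the same strand), 1.45-fold for convergent regions (between ORF ends) and 0.709-fold for segments that overlap an ORF. The median segment had 43 reads in *trf4*Δ and 26.9 normalised reads in wild type, and 430 segments had no read in *trf4*Δ, compared to 851 in wild type.

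The log2 difference, log2 reads in *trf4*Δ minus log2 normalised reads in wild type, had a median of 0.69 over the 7617 divergent segments, against 0.55 over the tandem and -1.09 over the ORF segments. Over the convergent segments it was -0.16, and this value turned positive when the median log2 difference of all segments with at least 64 reads was set to 0. That scaling moved every log2 difference by 1.08, and no scaling at all by 0.43. Of the divergent segments, 2230 (29.3%) were more than 4-fold higher in *trf4*Δ, against a background of 10.2% of all segments, and 312 (4.10%) were more than 4-fold lower, against 13.4% of all segments. The share more than 4-fold higher was 27.6% for tandem segments, 17.5% for convergent segments and 6.37% for ORF segments. The divergent segments thus lay near the tandem segments and apart from those over ORFs.

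**Figure D1:**
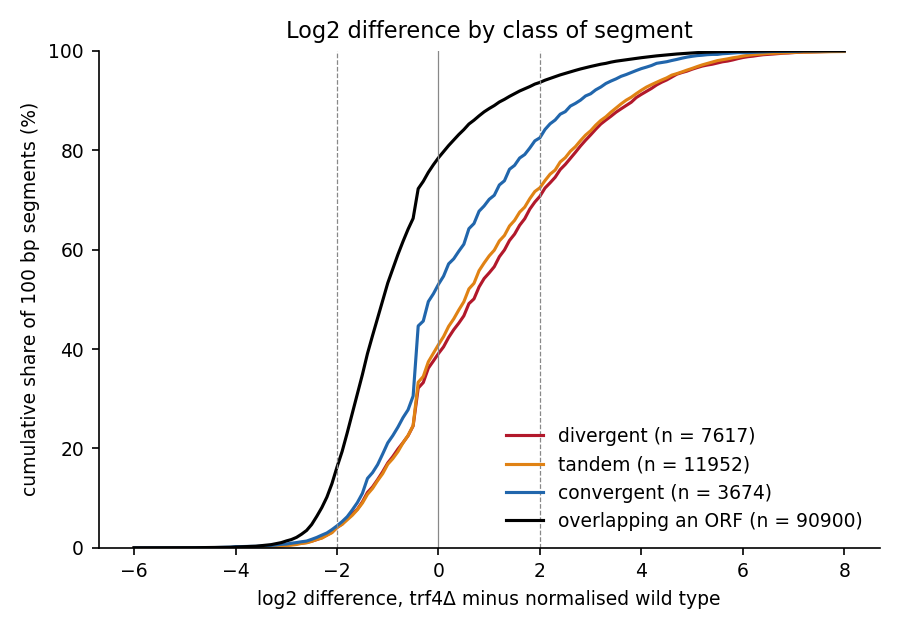
Cumulative share of 100 bp segments (vertical axis, %) by log2 difference, *trf4*Δ minus normalised wild type (horizontal axis), for divergent, tandem, convergent and ORF segments, with dashed lines at the 4-fold limits. The divergent curve (median 0.69) lies close to the tandem curve (median 0.55), and the step at -0.43 holds segments with equal reads in both libraries before normalisation, 0 reads included.

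Over the 1369 regions the median log2 difference was 0.60, compared to 0.59 for 2577 tandem regions, -0.29 for 1098 convergent regions (positive under the median scaling) and 0.35 for all 5044 intergenic regions. More reads in *trf4*Δ than normalised reads in wild type were found in 823 regions (60.1%), and 21 regions had no read in either library. More than 4-fold differences were found in 347 regions that were higher in *trf4*Δ (25.3%, against 22.8% of all intergenic regions) and in 54 that were lower (3.94%, against 3.19%). These shares were close to those of all intergenic regions.

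A mean of at least 64 reads per segment in either library was reached by 676 of the 1369 regions. Of these, 220 passed in *trf4*Δ only, 96 in wild type only and 360 in both, so that counts among them partly follow from the minimum. Among the 676, 259 were more than 4-fold higher in *trf4*Δ (38.3%, against 35.5% of all intergenic regions that passed), 24 were more than 4-fold lower (3.55%, against 2.71%) and 393 lay between. More than 16-fold differences were found in 62 regions that were higher in *trf4*Δ and in 0 that were lower. Among all 2250 intergenic regions that passed, 207 were higher and 1 lower by that limit, and among 1223 tandem regions 131 and 0. With the median log2 difference of all segments set to 0, the 4-fold counts of divergent regions were 397 higher and 0 lower. Just inside the 4-fold limit were *CYC3*–*CDC19* and *RTA1*–*RPS0A*, both with a log2 difference of 2.01, and just outside were *CHC1*–*POX1* with 1.99 and *RIB5*–*POP4* with 1.98. On the other side *TGL3*–*PRE5* (-2.01) was just inside and *OCA6*–*DOS2* (-1.99) just outside, but *TGL3*–*PRE5* rests on the segment next to *PRE5*, without which 1 segment with 13 reads in *trf4*Δ and 0 in wild type was left.

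**Figure D2:**
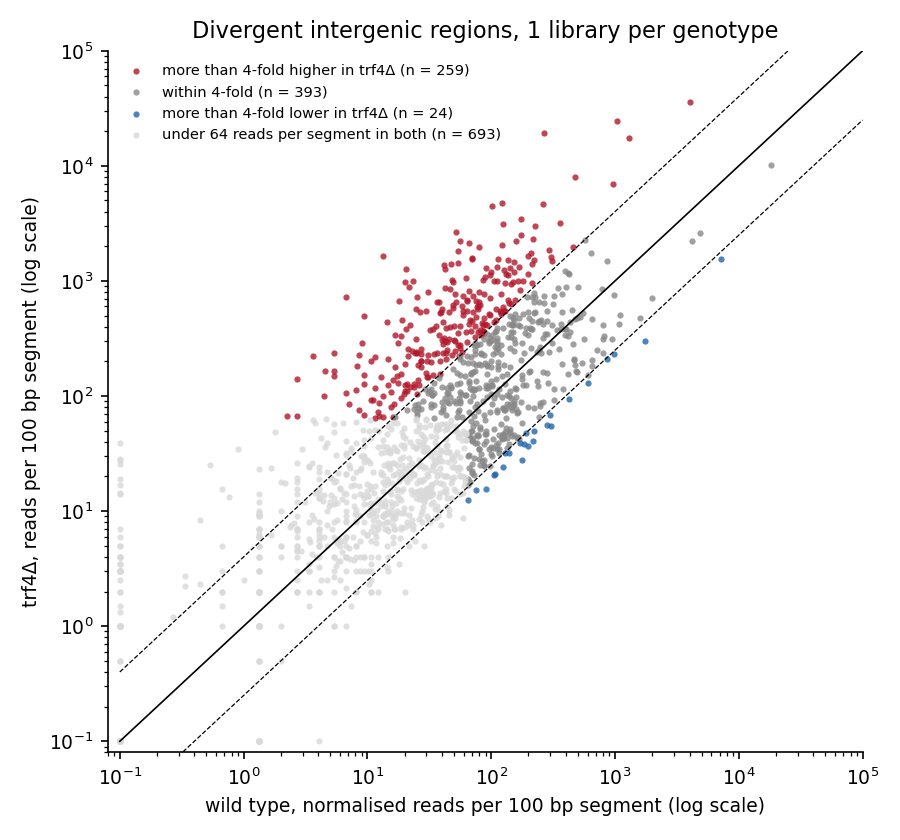
Reads per 100 bp segment in *trf4*Δ (vertical axis, log scale) and normalised reads per segment in wild type (horizontal axis, log scale) for 1369 divergent regions, with values under 0.1 drawn at 0.1. The solid line marks equal values and the dashed lines 4-fold; 259 regions lie above the upper dashed line and 24 below the lower among those with at least 64 reads per segment in either library.

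The reads were concentrated in few regions. In *trf4*Δ 36 regions held 50% of the reads of divergent segments, and in wild type 41 did. Over all 5044 intergenic regions 108 did in *trf4*Δ and 107 in wild type. The 259 divergent regions more than 4-fold higher held 70.4% of the divergent reads of *trf4*Δ. Regions called in the same way held 69.6% in tandem and 67.6% in all intergenic regions. These shares partly follow from the choice of regions by their *trf4*Δ reads. Each of the 16 chromosomes had divergent regions more than 4-fold higher, from 28.9% of those that passed on V (11 of 38) to 66.7% on I (4 of 6).

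The 10 regions with most reads in *trf4*Δ held 32.5% of its divergent reads. Of these 10, 9 were more than 4-fold higher in *trf4*Δ, against 38.3% of all divergent regions that passed the minimum. Both values partly follow from the choice of these regions by their *trf4*Δ reads. *LCB1*–*PRC1* (chromosome XIII, 860901 to 861900), between the genes of a serine palmitoyltransferase subunit and of vacuolar carboxypeptidase Y, had 246311 reads in *trf4*Δ and 10406 normalised reads in wild type (log2 difference 4.56). Its reads formed 1 peak, with 121133 reads in *trf4*Δ and 5332 normalised reads in wild type in the segment that begins 321 bp from the *PRC1* start, whereas the segment beside *LCB1* had 55 reads in *trf4*Δ and 116 normalised reads in wild type. The ORFs themselves had log2 differences of 0.36 for *LCB1* and -1.20 for *PRC1*. The segments with most reads thus lay on the *PRC1* side of the region in both libraries.

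*NRD1*–*RAD50* (chromosome XIV, 174401 to 175400) lies between the gene of the Nrd1 protein itself and that of Rad50, a subunit of the MRX complex that acts on DNA double-strand breaks. It had 175541 reads in *trf4*Δ and 13084 normalised reads in wild type (log2 difference 3.75). The reads lay in 2 blocks that differed in size of change. Next to *NRD1*, the 2 nearest segments had 25440 and 41753 reads in *trf4*Δ against 3803 and 7453 normalised reads in wild type, log2 differences of 2.74 and 2.49. Next to *RAD50*, the 3 nearest segments, whose sequence is shown above, had 50358 reads in *trf4*Δ and 622 normalised reads in wild type, with log2 differences of 5.97, 6.65 and 7.16. A segment between the blocks had 2 reads in *trf4*Δ and 12.1 normalised reads in wild type. The *NRD1* ORF had a log2 difference of 1.91 and the *RAD50* ORF of 0.51. The 300 bases beside *RAD50* hold CTTG 4 times and CAAG 2 times, GTAG 2 times and GTAA 1 time.

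*FSF1*–*YTM1* (chromosome XV, 832101 to 832800) had the most reads of all divergent regions in *trf4*Δ, with 253055 reads against 28220 normalised reads in wild type. It holds the snoRNA gene *SNR8*, which R64 places 292 to 481 bp from the *YTM1* start, and the 3 segments over it had log2 differences of 3.17, 2.98 and 3.28. The 2 segments between the snoRNA gene and *YTM1* had 8348 and 2913 reads in *trf4*Δ against 36.3 and 34.9 normalised reads in wild type, log2 differences of 7.85 and 6.38. The 2 segments on the *FSF1* side had 43 and 44 reads in *trf4*Δ against 12.1 and 8.06 normalised reads in wild type (1.83 and 2.45), so that the log2 difference was larger than over the gene on the *YTM1* side and smaller on the *FSF1* side. *RPS14A*–*BPH1*, with the snoRNA gene *SNR189* at 722 to 910 bp from the *BPH1* start, was chosen after its values were seen. Its highest segment in *trf4*Δ, with 4580 reads against 255 normalised reads in wild type, begins 316 bp from the *BPH1* start and lies outside the snoRNA gene. The highest in wild type lay over the snoRNA gene, with 2679 reads in *trf4*Δ and 828 normalised reads in wild type (1.69).

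**Figure D3:**
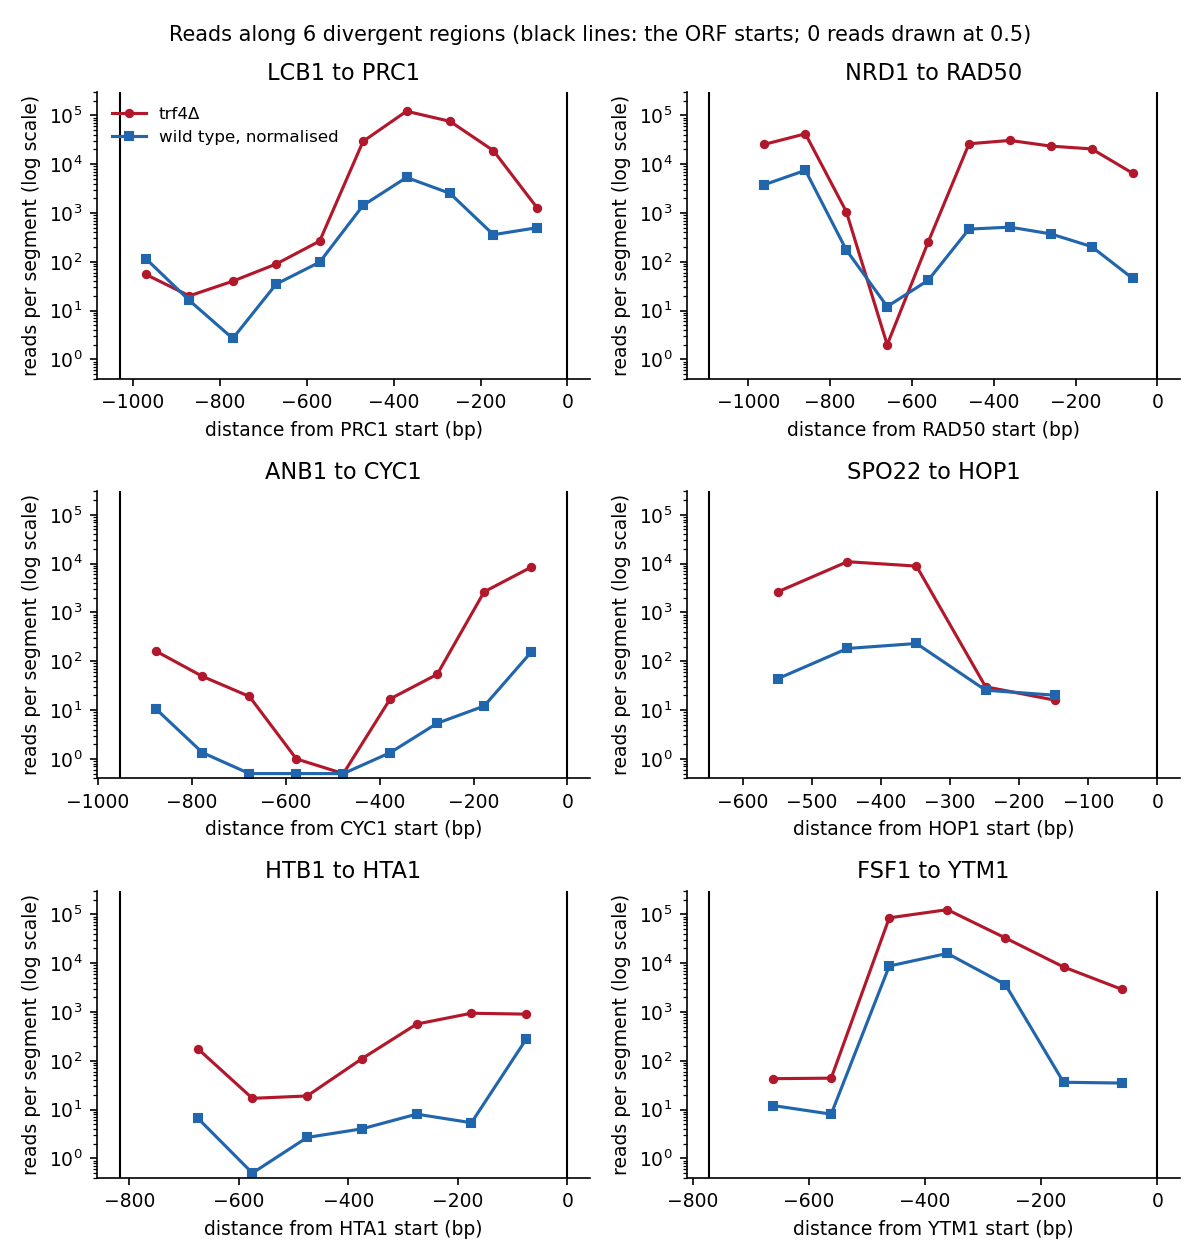
Reads per 100 bp segment (log scale) in *trf4*Δ (red) and normalised reads in wild type (blue) along 6 divergent regions, by distance from the start of the right-hand ORF in bp; black lines mark the ORF starts and 0 reads are drawn at 0.5. In *NRD1*–*RAD50* the *trf4*Δ values stand above those of wild type in a block on each side, and in *SPO22*–*HOP1* they do so in the 3 segments on the *SPO22* side.

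In 2 further regions of this group a flanking ORF was also more than 4-fold higher in *trf4*Δ. *RIF2*–*FMP27*, beside the gene of a telomere-binding protein, had 62993 reads in *trf4*Δ and 8694 normalised reads in wild type, and the *RIF2* ORF had a log2 difference of 4.96. *IRC22*–*MNN1*, beside the gene of a mannosyltransferase of the Golgi, had 37402 reads in *trf4*Δ and 7755 normalised reads in wild type. Its highest segment, 19 bp from the *MNN1* start, had 17426 reads in *trf4*Δ against 570 normalised reads in wild type, and the *MNN1* ORF had a log2 difference of 3.87. Whether the RNA of such regions runs into the ORF was not tested.

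In *ILV5*–*YLR356W* and *YGL034C*–*HOP2* neither ORF was higher. *ILV5* encodes an enzyme of branched-chain amino acid synthesis, and its region had 31163 reads in *trf4*Δ and 1242 normalised reads in wild type (log2 difference 4.65), while the *ILV5* ORF had -1.62. *HOP2* is needed for pairing of homologous chromosomes in meiosis, and its region had 32334 reads in *trf4*Δ and 6089 normalised reads in wild type (2.41), while the *HOP2* ORF had -0.98, which turned positive under the median scaling. *YDL183C*–*LYS20*, beside a homocitrate synthase gene, had 52205 reads in *trf4*Δ and 2614 normalised reads in wild type (4.32). *YJL147C*–*IDS2* had 28530 reads in *trf4*Δ and 728 normalised reads in wild type (5.29).

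*TOS2*–*PET54* was the exception among the 10, with 92426 reads in *trf4*Δ and 163936 normalised reads in wild type. Its log2 difference of -0.83 turned positive under the median scaling. The region holds *SNR7*, the gene of the U5 snRNA, a stable capped RNA of the spliceosome. The highest segment, which begins 326 bp from the *PET54* start, with 52030 reads in *trf4*Δ and 96479 normalised reads in wild type, lay over it.

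Among the regions with at least 64 reads per segment, the 10 highest log2 differences ranged from 5.48 to 6.93. In 2 of these, each of 1 segment, a flanking ORF without a gene name was itself more than 4-fold higher in *trf4*Δ. So was the *PHM7* ORF beside another of them, given below. *TKL1*–*YPR074W-A* had 1642 reads in *trf4*Δ and 13.4 normalised reads in wild type (6.93), with log2 differences of 2.62 for *TKL1*, a transketolase gene, and 5.66 for *YPR074W-A*. *FMP45*–*YDL221W* had 19352 reads in *trf4*Δ and 265 normalised reads in wild type (6.19), with 2.18 for *YDL221W*.

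In *DCP2*–*MLS1*, between the gene of the mRNA decapping enzyme and that of malate synthase of the glyoxylate cycle, 3 segments beside *MLS1* held 5028 of its 5040 reads in *trf4*Δ. They had 546, 2532 and 1950 reads in *trf4*Δ against 12.1, 25.5 and 5.38 normalised reads in wild type. The 4 segments on the *DCP2* side had 2 to 6 reads each in *trf4*Δ and 0 to 4.03 normalised reads in wild type. The ORFs had log2 differences of -1.54 for *DCP2* and 0.42 for *MLS1*. The sequence of the 3 segments, shown above, holds CTTG 2 times and GTAA 2 times on the *MLS1* strand.

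*ANB1*–*CYC1* (chromosome X, 525401 to 526300) lies between the gene of the hypoxic form of translation factor eIF5A and that of iso-1-cytochrome *c*. It had 11390 reads in *trf4*Δ and 184 normalised reads in wild type (log2 difference 5.95). The segments nearest to *CYC1* had 8443 and 2644 reads in *trf4*Δ against 153 and 12.1 normalised reads in wild type, and the 7 others had 0 to 163 reads in *trf4*Δ. Both ORFs had positive log2 differences, 1.70 for *ANB1* and 1.26 for *CYC1*. In the sequence beside *CYC1* the TATAAA begins 121 bases upstream of the start codon.

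The others of this group were *UTP6*–*RPS18A* (5.95), *VMA7*–*YGR021W* (5.72), *SEC1*–*TRM82* (5.67), *YOL085C*–*PHM7* and *SPO22*–*HOP1* (5.48), with *YHR173C*–*ENO2*. *YOL085C*–*PHM7* had 1951 reads in *trf4*Δ against 40.3 normalised reads in wild type, and the *PHM7* ORF had a log2 difference of 2.47. In *YHR173C*–*ENO2*, the region upstream of an enolase gene, 1 segment had 141 reads in *trf4*Δ against 2 unnormalised reads in wild type, a normalised ratio of 52.5 with an exact interval of 14.3 to 437. *SEC1*–*TRM82* had 13257 reads in *trf4*Δ and 261 normalised reads in wild type, a ratio of 50.9 (44.1 to 58.9), so that the counting error was smaller there. All of these values are descriptions of 2 libraries.

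The lowest log2 differences were smaller in size, with 5 values between -2.68 and -2.44. *SOD1*–*ADO1*, between the genes of superoxide dismutase and adenosine kinase, had 111 reads in *trf4*Δ and 711 normalised reads in wild type (-2.68). *COX9*–*IDP1*, between the genes of a cytochrome *c* oxidase subunit and a mitochondrial isocitrate dehydrogenase, had 1205 reads in *trf4*Δ and 6926 normalised reads in wild type (-2.52). Of these, 1065 reads in *trf4*Δ and 6644 normalised reads in wild type lay in the segment beside the *COX9* start. *YDR196C*–*CBS2* (-2.55), *CDC12*–*GGA2* (-2.47) and *IOC2*–*KIN2* (-2.44) had the same form, with 96.8%, 99.1% and 87.6% of their *trf4*Δ reads in 1 segment. The 2 ORFs beside each of these 5 regions had log2 differences between -2.38 and -1.13.

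The regions with most reads in wild type, beside *TOS2*–*PET54* and *FSF1*–*YTM1*, were *GCN4*–*YEL008W*, *HSP10*–*YOR020W-A* and *CCW12*–*YLR111W*. *GCN4* encodes a transcription factor whose mRNA has a long leader with short upstream ORFs. Its region had 18204 reads in *trf4*Δ and 33750 normalised reads in wild type, and the log2 difference of -0.89 turned positive under the median scaling. The segments nearest to *GCN4* had log2 differences of 0.46 and 0.38, and the highest segment, 438 bp from the *GCN4* start, had -1.23. *HSP10*–*YOR020W-A*, beside a mitochondrial chaperonin gene, had 15490 reads in *trf4*Δ and 29157 normalised reads in wild type (-0.91, positive under the median scaling). *CCW12*–*YLR111W*, beside a cell wall protein gene, had 3089 reads in *trf4*Δ and 14241 normalised reads in wild type (-2.20), with 2868 and 13909 of them in the segment beside *CCW12*.

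To see where in the regions the reads differed, segments were ordered by distance from the nearest ORF start. In the 100 bp nearest to an ORF the median segment had 32 reads in *trf4*Δ and 34.9 normalised reads in wild type, a median log2 difference of -0.16 that turned positive under the median scaling. It was 0.73 at 100 to 200 bp and 1.16 at 300 to 400 bp. Segments that far from both starts come only from wide regions, so the distances differ also in the regions they cover. The part of region width in this order was not tested. Tandem regions, ordered by distance from the start of the downstream ORF, had -0.27, 0.57 and 0.94 at the same distances, the first of them also positive under the median scaling. Inside the flanking ORFs the medians lay between -1.39 and -1.35 over the first 500 bp. In the regions more than 4-fold higher, the median was 2.06 in the 100 bp nearest to an ORF and -0.84 in the first 100 bp inside it. The 2.06 restates how these regions were chosen, and the -0.84 turned positive under the median scaling.

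**Figure D4:**
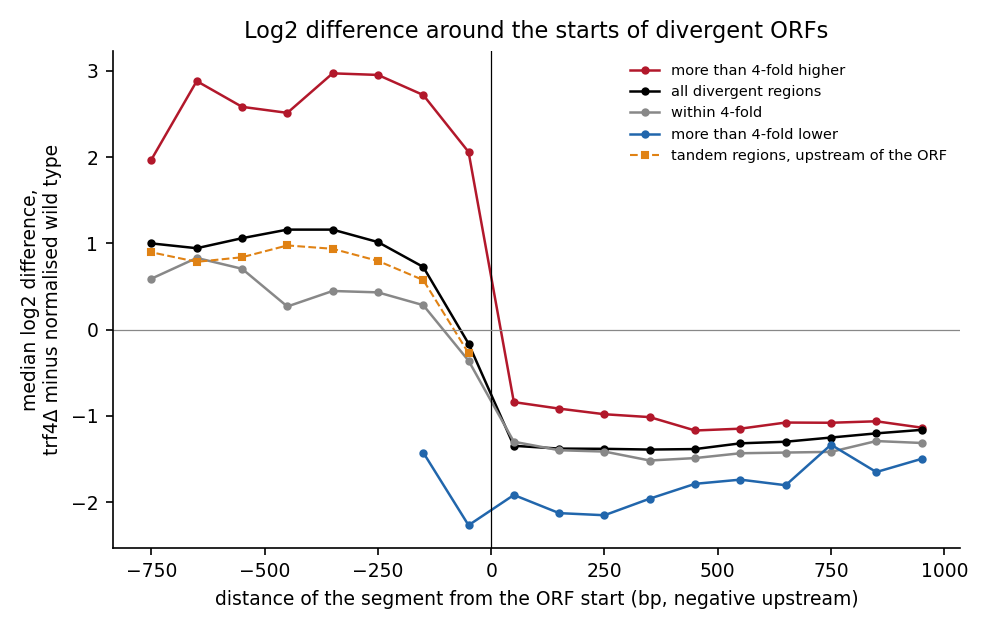
Median log2 difference, *trf4*Δ minus normalised wild type (vertical axis), of 100 bp segments by distance from the ORF start in bp (horizontal axis, negative upstream), for all divergent regions, those more than 4-fold higher, within 4-fold or more than 4-fold lower among regions with at least 64 reads per segment, and tandem regions; points need at least 20 segments. In all divergent regions the median is 1.16 at 300 to 400 bp upstream, where only wide regions have segments, and -1.35 in the first 100 bp of the ORF.

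In regions of at least 5 segments that were more than 4-fold higher (189 regions), the highest segment held a median of 38.1% of the *trf4*Δ reads. It lay a median of 244 bp from the nearest ORF start, with 123 of the 189 peaks at 200 bp or more. The peak was nearer to the ORF with fewer wild-type reads per length in 96 regions and nearer to the other in 93. Regions of at least 5 segments within 4-fold (245 regions) had nearly the same form. Their highest segment held a median of 34.4% of the *trf4*Δ reads, a median of 226 bp from the nearest start. Of these 245 peaks, 143 lay at 200 bp or more.

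Wider regions had larger differences. The median log2 difference was -0.16 in 368 regions of less than 300 bp and -0.02 in 317 regions of 300 to 500 bp, both positive under the median scaling. It was 0.88 in 364 regions of 500 to 800 bp, 1.51 in 173 regions of 800 to 1200 bp and 1.33 in 147 regions of 1200 bp or more. More than 4-fold higher in *trf4*Δ were 66, 59, 108, 64 and 50 of these regions in the same order, or 17.9% of the narrowest and 34.0% of the widest, against 24.0% and 30.9% of tandem regions of these widths. Depth moved with width, since the median reads per segment were 13 in *trf4*Δ and 10.4 (normalised) in wild type in the narrowest class, and 234 in *trf4*Δ and 68.0 in wild type in the widest; its part in the order was not tested. The region with most segments, *YGR038C-A*–*YGR039W* with 73, had 579 reads in *trf4*Δ and 187 normalised reads in wild type, below the minimum.

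The steps by which the study defined CUTs (segments more than 4-fold higher, starts up to 300 bp apart joined, at least 300 bp long and a mean log2 read count above 6) were applied with chromosome ends kept apart. Of 1573 such runs, 342 (21.7%) held a divergent segment, and they touched 329 of the 1369 regions. Of the 342, 208 stayed clear of both ORFs, 126 reached into 1 ORF and 8 into both. They were 300 to 2200 bp long, with a median of 500 bp. They took up 20.8% of the divergent segments, compared to 19.6% of tandem, 10.2% of convergent and 5.47% of ORF segments. They held 72.8% of the divergent reads in *trf4*Δ and 17.0% of those in wild type, which partly follows from how the runs were chosen.

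The ORFs on both sides of a region were compared in the ORF table, over ORFs with a log2 read count above 6 in either library. Beside the 259 regions that were more than 4-fold higher, 513 flanking ORFs had a median log2 difference of -0.48, against -1.10 for 772 ORFs beside the regions within 4-fold and -0.97 for all 6246 ORFs; of these only -1.10 kept its sign under the median scaling. Of the 513, 61 (11.9%) were more than 4-fold higher, against a background of 8.09% of all ORFs, and 39 (7.60%) were more than 4-fold lower, against 10.6%. In 200 of 254 pairs of such ORFs neither was more than 4-fold higher, in 48 pairs 1 was and in 6 pairs both were. Beside the 24 lower regions, 20 of 47 ORFs were more than 4-fold lower (42.6%). The values of a region and of its ORFs may share reads near the start codon.

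Gene classes were described by the regions that their members flank. The values to read them against are those of all 1369 divergent regions, of which 25.3% were more than 4-fold higher in *trf4*Δ (median 0.60), and of the 676 that passed the minimum, of which 38.3% were (median 1.37). Early meiotic genes, which are induced on entry into meiosis, flanked 19 regions, of which 17 passed the minimum. The median log2 difference was 1.26 both over the 19 and over the 17, above the median of all regions and below that of all that passed, and 6 were more than 4-fold higher in *trf4*Δ. *SPO22*–*HOP1*, between the genes of a crossover protein and of a chromosome axis protein of meiosis, had 22553 reads in *trf4*Δ and 504 normalised reads in wild type. Its 3 segments beside *SPO22* had 2667, 10941 and 8899 reads in *trf4*Δ against 44.3, 183 and 231 normalised reads in wild type, whereas the 2 segments nearer to *HOP1* had 30 and 16 reads in *trf4*Δ against 25.5 and 20.2. The ORFs had log2 differences of -0.72 for *SPO22*, positive under the median scaling, and -1.39 for *HOP1*. The GCCGCC in its sequence lies 529 bases upstream of *HOP1*, in the segment nearest to *SPO22*, which had 2667 reads in *trf4*Δ. It is thus closer to the *SPO22* start than to the *HOP1* start, and which of these genes it serves was not tested.

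*JLP2*–*REC114*, beside a gene needed for meiotic double-strand breaks, had 1359 reads in *trf4*Δ and 51.1 normalised reads in wild type (4.73). *YNL211C*–*MER1*, beside the gene of a meiotic splicing activator, had 23495 reads in *trf4*Δ and 1316 normalised reads in wild type (4.16), and the *MER1* ORF had 0.75. *TMA7*–*RED1* had the lowest value of those that passed, with 1254 reads in *trf4*Δ and 2784 normalised reads in wild type (-1.15). *IME1*–*RPL43B*, chosen after its values were seen, holds the non-coding gene *IRT1* upstream of *IME1*, the regulator of entry into meiosis. It had 14035 reads in *trf4*Δ and 5843 normalised reads in wild type (1.26), with the highest segment, of 3395 reads in *trf4*Δ and 796 normalised reads in wild type, 1001 bp from the *RPL43B* start. Middle meiotic genes, which act in the divisions and in spore formation, flanked 12 regions. Of these 3 passed the minimum (median -1.67), and the median of the 12 was -0.48, positive under the median scaling. *SOK2*–*SPO20* (2.24) was higher, and *CRR1*–*FRE1* (-1.73) and *YLR307C-A*–*CDA2* (-1.67) were the lowest that passed.

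Carbon metabolism genes flanked 16 regions, with a median log2 difference of 2.47. Of these, 14 passed (median 3.21) and 9 of the 14 were more than 4-fold higher, against 38.3% of all regions that passed. They included *ADH2*–*UBP15*, beside the alcohol dehydrogenase that oxidises ethanol, with 6992 reads in *trf4*Δ and 238 normalised reads in wild type (4.88). Of these, 5462 reads in *trf4*Δ lay in the segment that begins 65 bp from the *ADH2* start, and the *ADH2* ORF had -1.85. *ADH1*–*YOL085W-A*, beside the fermentative alcohol dehydrogenase, had 1747 reads in *trf4*Δ and 4842 normalised reads in wild type (-1.47). *GAL10*–*GAL1*, between genes of galactose use, was below the minimum, with 64 reads in *trf4*Δ and 134 normalised reads in wild type.

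The histone genes H2A and H2B, and H3 and H4, lie in divergent pairs. *HTB1*–*HTA1* was the only 1 of the 4 pairs that was more than 4-fold higher, with 2730 reads in *trf4*Δ and 302 normalised reads in wild type (3.17). Its 3 segments nearest to *HTA1*, shown above, had 901, 941 and 564 reads in *trf4*Δ against 275, 5.38 and 8.06 normalised reads in wild type, so that the 2 libraries were most alike next to the ORF. *HTA2*–*HTB2* had 2192 reads in *trf4*Δ and 661 normalised reads in wild type (1.73), with 1798 and 394 of them beside *HTA2*. *HHT2*–*HHF2* had 703 reads in *trf4*Δ and 265 normalised reads in wild type (1.41). *HHF1*–*HHT1* was below the minimum, with 201 reads in *trf4*Δ and 270 normalised reads in wild type. All 8 of these ORFs had log2 differences between -1.81 and -0.73, the highest of which (*HTA2*) turned positive under the median scaling. Copies of a histone gene are nearly identical, so reads of these ORFs may be split between copies. The whole histone list flanked 6 regions (median 1.13). Of these, 4 passed (median 1.57) and 1 was more than 4-fold higher, against 38.3% of all regions that passed. *HTZ1*–*PLB3* was the lowest that passed, with 4306 reads in *trf4*Δ and 10671 normalised reads in wild type (-1.31).

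Ribosomal protein genes flanked 67 regions (median 0.78), of which 19 were more than 4-fold higher, against 25.3% of all regions. Of the 25 that passed (median 2.25), 14 were, against 38.3%. *MON1*–*RPS2* had 17133 reads in *trf4*Δ and 529 normalised reads in wild type (5.02), of which the 3 segments nearest to *MON1* held 3014, 6929 and 7005 reads in *trf4*Δ. *RPS29B*–*TSR1* had the lowest value of those that passed, with 339 reads in *trf4*Δ and 1341 normalised reads in wild type, and its log2 difference of -1.98 became 0.63 when segments next to an ORF were left out, which left segments of 6 to 62 reads in *trf4*Δ. Mitochondrial ribosomal protein genes flanked 34 regions (median 0.92), of which 10 were more than 4-fold higher, against 25.3% of all regions. The 16 that passed had a median of 0.11, below the 1.37 of all that passed; 5 were more than 4-fold higher, against 38.3%, and 1, *MRP17*–*DID4* (-2.27), was more than 4-fold lower. *YJR100C*–*RSM26* had 7932 reads in *trf4*Δ and 188 normalised reads in wild type (5.40); R64 lists a tRNA gene in this region. Ribosome biogenesis genes flanked 34 regions (median 0.16), of which 7 were more than 4-fold higher, against 25.3% of all regions; 6 passed (median 1.66), and 3 of these were, against 38.3%.

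Heat shock genes flanked 7 regions (median 0.90), of which 6 passed (median 1.47) and 3 of these were more than 4-fold higher, against 38.3% of all regions that passed. *YDJ1*–*MTQ1*, beside a co-chaperone gene, had 4867 reads in *trf4*Δ and 395 normalised reads in wild type (3.62). *SIS1*–*LST8* had 266 reads in *trf4*Δ and 10.7 normalised reads in wild type (4.63), a ratio of 24.7 with an exact interval of 12.4 to 57.9. *HSP82*–*YAR1* had 727 reads in *trf4*Δ and 176 normalised reads in wild type (2.05). Genes of nuclear RNA decay and cap binding flanked 9 regions (median 0.93), of which 3 passed. Beside *NRD1*–*RAD50*, *XKS1*–*SKI6* (2.47), next to an exosome subunit gene, was more than 4-fold higher, and *PCF11*–*IVY1*, next to a termination factor gene, had 2486 reads in *trf4*Δ and 1234 normalised reads in wild type.

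**Figure D5:**
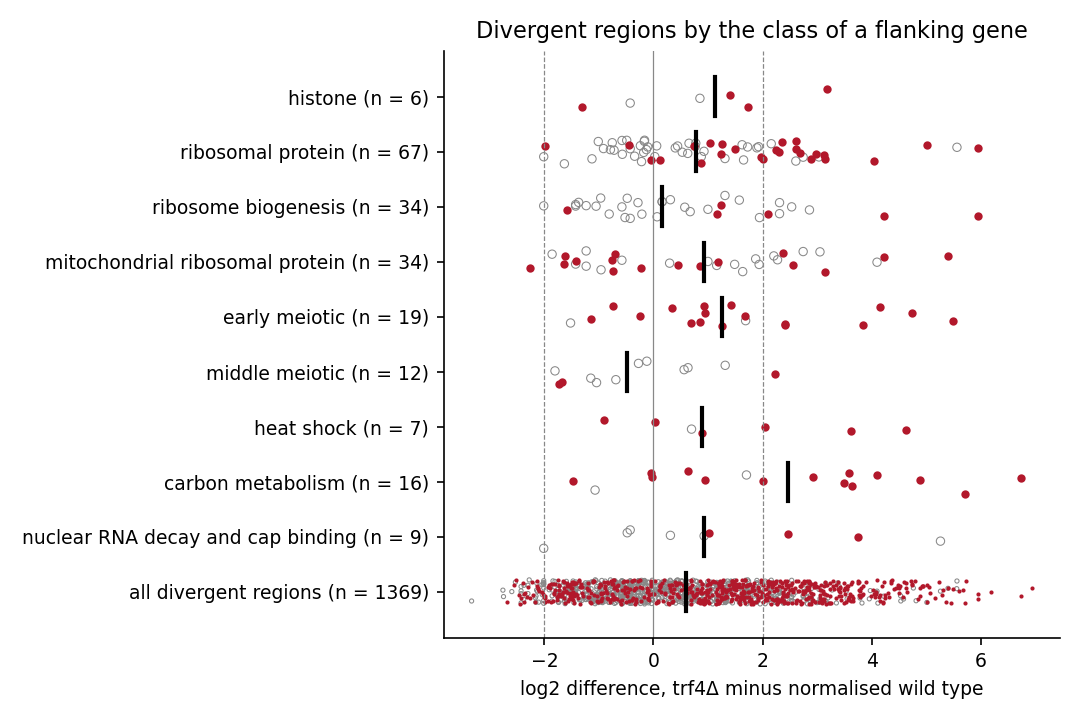
Log2 difference, *trf4*Δ minus normalised wild type (horizontal axis), of the divergent regions flanked by genes of each class (rows), with red points for regions with at least 64 reads per segment in either library, open points for the others and black bars for medians over all regions of the row. Medians range from -0.48 for middle meiotic genes to 2.47 for carbon metabolism genes, against 0.60 for all 1369 regions.

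Of the 1260 regions whose ORFs were found in R64, 91 held an annotated gene of a non-coding RNA. Of all divergent regions that passed, 38.3% were more than 4-fold higher. Regions with a snoRNA gene numbered 12, all of which passed, and their log2 differences ranged from -1.56 to 3.16 with 5 more than 4-fold higher. The 75 regions with a tRNA gene, which RNA polymerase III transcribes, had a median of 1.10, and 15 of 43 that passed were more than 4-fold higher. The 1169 regions without a non-coding RNA gene had a median of 0.57, and 221 of the 564 that passed (39.2%) were more than 4-fold higher. Regions with such a gene were wider, with a median gap of 1243 bp against 486 bp without. The part of width in the medians was not tested. The differences were thus not limited to regions with an annotated non-coding gene.

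Motifs were counted in the 250 bases upstream of each start codon on both strands, for the 1214 regions with the same gap in R64 and for 6001 promoters of that genome; in gaps under 250 bases this window runs into the other ORF. TCTTG, the longer Nab3 site, which contains CTTG, was found in 309 of 470 promoters (65.7%) beside the regions more than 4-fold higher, against 55.7% beside those within 4-fold, 56.5% beside the lower ones and 53.4% of all promoters. CTTG was found in 90.9% beside the higher regions and 86.4% of all promoters. GTAA (93.6% against 92.4%) and GTAG (75.5% against 74.0%) were found in nearly equal shares. TATAAA was found in 40.0% beside the higher regions, 38.6% beside all 1214 divergent regions and 43.4% of all promoters. TTACCCG, the site of Reb1, was found in 7.87%, 8.32% and 7.03% in the same order. GGCGGC, the reverse complement of GCCGCC, was found in 5.32% beside the higher regions, 6.59% beside those within 4-fold and 4.17% of all promoters. Among promoters of the early meiotic genes it was found in 12 of 19 (63.2%). Median GC content was 36.2% in the higher regions, 37.2% in those within 4-fold and 36.1% in all 1214. A match is a description of the bases and not a binding site.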

How the data were processed

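RNA bound to TAP-tagged Cbc2 was sequenced once from *trf4*Δ and once from wild type. The authors trimmed reads with Trim Galore 0.3.5, mapped them with Bowtie 0.12.7 to SGD1.01 or to an SK1 assembly and summed them in SeqMonk; which mapping made each table is not given in the sources used here. In the segment table the authors deposited log2 values of whole reads per 100 bp, not normalised, with 0.9 for 0 reads. Of the log2 values per ORF that the authors deposited, those of *trf4*Δ are of whole reads, while wild type had been scaled up 1.345 times before the logarithm.

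Reads were recovered as powers of 2, 139 segments of the 37S pre-rRNA were removed and wild type was multiplied by 1.344. No test across replicates was possible, so a difference of more than 4-fold, with at least 64 reads per segment in either library where stated, describes 2 libraries. Shares have Wilson intervals and ratios exact binomial intervals (95%). Gene names, non-coding genes and sequences came from R64 (RefSeq); 1260 of 1369 regions matched by their ORFs, and 1214 had the same gap. Regions were named by rule: the 10 with most reads in *trf4*Δ, the 5 with most in wild type, the 10 highest and 5 lowest differences past the minimum, fixed gene pairs, the 5 widest, and the lowest and up to 3 highest of each gene list; those nearest to the 4-fold limit and 2 chosen after their values were seen were added. The result for 1 region is not reported here. The members and lists were chosen with earlier results of these data known. The scripts were tested on simulated data. The software was Python 3.11.15 with pandas 2.3.3, numpy 2.4.6, matplotlib 3.10.9 and scipy 1.17.1. Other scalings, minimums, fold limits and region definitions were tried.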

Additional observations from a re-analysis of the deposited data

How the results depend on the processing

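No paired analysis was possible because *trf4*Δ and wild type had 1 library each, so no replicate could be left out either. Among regions with at least 64 reads per segment (259 more than 4-fold higher in *trf4*Δ, 24 lower, median log2 difference 1.37) and segments with at least 64 reads (1584 higher, 167 lower), the following values moved; the cause was not tested. With segments centred on a median of 0, 397 regions were higher and 0 lower, the median was 2.74 and 3 segments were lower. With no scaling, 6 regions and 45 segments were lower and the median was 1.94. Without U1 snRNA reads in the totals, the divergent share was 13.4% in *trf4*Δ and 4.22% in wild type. With an 8-fold limit, 140 regions and 1005 segments were higher, and 0 regions and 9 segments lower. With no minimum, 54 regions and 312 segments were lower and the median was 0.60; with a minimum 4 times as high, 9 regions and 71 segments were lower and the median was 2.15. With only named ORFs as borders, 421 segments were lower and the shares were 15.2% in *trf4*Δ and 7.25% in wild type. With segments next to an ORF left out, 11 regions and 93 segments were lower, the median was 1.87, the shares were 8.82% in *trf4*Δ and 2.71% in wild type, and *TGL3*–*PRE5* turned to 3.43, a value set by 0.9 in place of 0 wild-type reads in 1 segment. With regions holding a non-coding RNA gene left out, the shares were 8.19% in *trf4*Δ and 2.55% in wild type. Of 72 named regions, 9 changed sign with the median set to 0, 1 with no scaling and 1 without U1 reads, and 3 of 61 (*TGL3*–*PRE5*, *RPS29B*–*TSR1* and *NOP14*–*RPN5*) with segments next to an ORF left out. A pseudocount of 1, and a minimum on the mean of both libraries that was chosen after seeing the data, changed no count or median by more than 1.5 times. In the list above, a count was called moved when it changed by more than 1.5 times. A median was called moved outside the 95% interval of the main median, and a share outside the Wilson interval of the main share.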
